A study of Rattus norvegicus with 19 samples.

Results

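The retinas of diabetic rats that had received insulin were compared with those of diabetic rats that had not. Of the 19 arrays of the series, 1 per rat, 7 carried RNA of insulin-treated diabetic rats and 5 of untreated diabetic rats, and these 12 make up the comparison. Of 22517 probes, 10603 had a detection p under 0.05, the array software's test against negative control beads, on every array of at least 1 of the 2 groups, and they represent 7270 genes with a symbol. All rats were male Sprague-Dawley rats. Diabetes was induced with a single intraperitoneal injection of streptozotocin (STZ), which destroys the insulin-producing beta cells of the pancreas, at 65 mg/kg, and only injected rats with raised blood glucose were included. Subcutaneous insulin pellets of 26 mg were given from week 6 to the treated group, with further pellets according to blood glucose and body weight, so that these rats were diabetic without treatment before week 6. Untreated diabetic rats carried no pellet, and the 7 non-diabetic controls were injected with vehicle. Retinas were taken 3 months after injection together with the pigment epithelium, after removal of the lens and the vitreous, and they hold all retinal cell types, so that fewer cells of a type and less RNA per cell cannot be told apart in any value below.

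The retina takes up glucose without a need for insulin but carries insulin receptors on its neurons, glia and vessels, where insulin acts through the kinase AKT and keeps FOXO transcription factors out of the nucleus. In diabetes, retinal vessels leak and close, Müller glia, the radial support cells of the retina, switch on intermediate filaments and stress proteins, microglia become reactive and neurons lose synaptic proteins. Amino acid shortage and endoplasmic reticulum stress act through the transcription factor ATF4, and growth signals act through Myc and its partner Max on genes of ribosome synthesis.

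Arrays of a group resembled each other closely, with correlations of 0.962 to 0.986 between diabetic and 0.979 to 0.991 between insulin-treated rats. The median within-group SD of a probe was 0.231 on the log2 scale in diabetic and 0.187 in insulin-treated rats. Diabetic replicates 2 and 3 had the lowest array weights (0.340 and 0.335). Each array sat on 1 of 2 slides (BeadChips), with 2 diabetic and 4 insulin-treated rats on BeadChip 1 and 3 of each on BeadChip 2. Rod and cone genes marked the tissue as retina, with 29 of 31 measured genes detected and a mean log2 signal of 10.54 to 10.78 in diabetic and 10.62 to 10.83 in insulin-treated rats. Lens genes were also detected, 13 of 16 on the array, and their mean log2 signal, called the lens score below, differed between the groups. Between them 12 of the 13 fell. The score was 10.957, 9.624, 8.596, 12.003 and 11.152 in diabetic replicates 1 to 5, and in insulin-treated rats it ran from 6.571 to 9.296 with a median of 7.966. The groups overlapped only in that insulin-treated replicate 3 (9.296) stood above diabetic replicate 3. In controls it ran from 6.945 to 10.531. Of the lens fibre markers, Lim2, Bfsp1, Cryba1 and Crygd were measured, whereas Mip was on the array but not detected. The part of lens tissue in the differences below was not tested, and the differences of most genes described at length are also given from a model with the lens score as a covariate.

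Changes between insulin-treated and untreated diabetic rats went both ways, and the decreases reached farther than the increases. By limma, in a model that held the controls as well and with Benjamini-Hochberg adjustment over all detected probes, 1132 probes changed at an adjusted p under 0.05 (10.7% of those tested), of which 705 were higher (6.65%) and 427 lower (4.03%) in insulin-treated rats. In genes with a symbol these were 515 higher (7.08%) and 343 lower (4.72%), the background for every list below, and "rose" and "fell" are used of genes that passed. The median change was 0.39 on the log2 scale among higher and 0.62 among lower probes, and 16 higher and 99 lower probes changed by more than 1. The values of insulin-treated and diabetic rats did not overlap for 400 probes (3.77%), 237 higher (2.24%) and 163 lower (1.54%), and among genes for 299 (4.11%), 176 higher (2.42%) and 123 lower (1.69%). These counts depended on the model and the arrays. With only the 2 groups in the model 284 probes were higher and 310 lower, within BeadChip 1 alone 0 and 8, and with 1 array left out between 552 and 1514 probes were called (552 without diabetic replicate 2, 681 without diabetic replicate 4, and 733, 727 and 717 without insulin-treated replicates 5, 6 and 7). At an unadjusted p under 0.05 there were 2900 probes (27.4%), and 2087 of these also changed by more than 1.2-fold (19.7%), 1271 upwards (12.0%) and 816 downwards (7.7%). Of the probes tested, 351 passed the detection filter only through the diabetic and 315 only through the insulin-treated rats. The filter favours a higher signal in that group for these probes, and 46 and 24 of them are among the lower and higher calls. Of the genes described below, Ears2, Ciita, Bcl2l10, Crh and Cyp2u1 passed it only through the insulin-treated and Pgf, Tnfrsf12a, Nfkb2, Gabra5, Cobl, Lama5, Tgfb1, Tgif1, Gstm2, Gja3, Lim2, Gbp2 and Psmb9 only through the diabetic rats. A model with the lens score as a covariate left 2 probes (0.0189%), among them Ears2, and 1383 (13%) had an unadjusted p under 0.05. The 705 higher probes then kept a median of 94.4% of their difference and the 427 lower probes 62.9%. The score nearly separated the 2 groups, so that this model can hardly tell group from score and estimates the group difference with less precision. A call lost in it therefore does not tell what part lens tissue had.

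**Figure D1:**
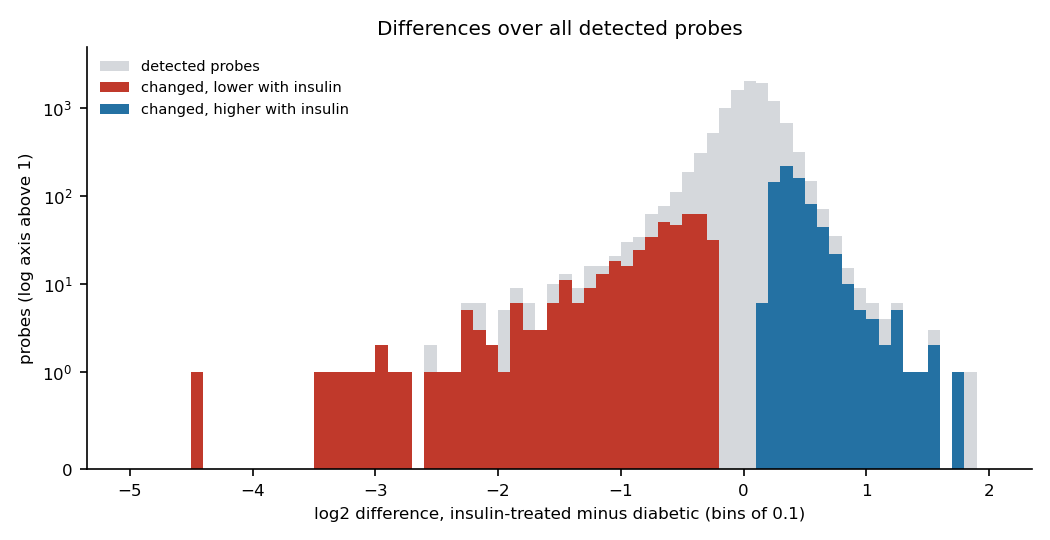
Histogram of the log2 difference, insulin-treated minus diabetic rats, over 10603 detected probes in bins of 0.1, with the number of probes on a log axis above 1. Grey bars are all probes, and coloured bars are the 427 lower and 705 higher ones that passed an adjusted p of 0.05. The lower ones reach farther from 0, to beyond -4, than the higher ones, which end below 2.

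Genes that ATF4 switches on in amino acid shortage were higher in insulin-treated rats. Of 29 detected genes of this list, 7 rose and 1 fell, with a median difference of 0.25 (0.06 over all detected probes). With only the 2 groups in the model 2 members passed. Promoters, from 250 bases before to 50 bases after the gene start in RefSeq (build GRCr8), are shown for 3 risers because they hold the composite CEBP-ATF element, TGATGNAA on either strand, to which ATF4 binds with a C/EBP partner. Capitals mark the element.
Chac1, chr3:126795881-126796180 (+ strand): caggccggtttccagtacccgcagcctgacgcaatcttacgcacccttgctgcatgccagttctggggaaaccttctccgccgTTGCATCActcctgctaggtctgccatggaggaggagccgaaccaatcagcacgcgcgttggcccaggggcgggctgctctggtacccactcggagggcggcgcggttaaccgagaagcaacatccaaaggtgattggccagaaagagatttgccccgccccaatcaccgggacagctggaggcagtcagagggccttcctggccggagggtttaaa
Trib3, chr3:161275484-161275783 (- strand): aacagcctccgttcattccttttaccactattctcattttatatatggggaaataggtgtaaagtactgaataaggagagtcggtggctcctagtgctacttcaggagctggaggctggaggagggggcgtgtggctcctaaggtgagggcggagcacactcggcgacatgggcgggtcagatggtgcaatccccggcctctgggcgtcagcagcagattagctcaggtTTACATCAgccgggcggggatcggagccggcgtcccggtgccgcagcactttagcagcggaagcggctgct
Slc7a1, chr12:11664238-11664537 (+ strand): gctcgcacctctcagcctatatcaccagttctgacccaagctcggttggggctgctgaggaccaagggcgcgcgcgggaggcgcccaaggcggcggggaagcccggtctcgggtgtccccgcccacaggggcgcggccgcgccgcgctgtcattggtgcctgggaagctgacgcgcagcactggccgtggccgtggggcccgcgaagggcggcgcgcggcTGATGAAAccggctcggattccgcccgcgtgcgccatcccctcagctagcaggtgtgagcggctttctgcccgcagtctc
The element was found in 5 of the 6 risers with a promoter in the table, these 3, Nars1 and Tars1, and not in Lars1. Since the list was chosen as ATF4 targets, a high share follows from that choice and is not a result of these arrays. The members that did not rise were not counted. It is present in 3.82% of all 27457 promoters, in 2.10% of those of detected genes, in 3.26% of the 460 of genes that rose and in 1.05% of the 286 of genes that fell. Slc7a1, which carries cationic amino acids into the cell, had log2 signals of 6.52, 5.74, 6.16, 5.22 and 6.78 in diabetic replicates 1 to 5 and of 6.66 to 7.62 (median 6.91) in insulin-treated rats. It rose by 0.94 (standard error 0.23, adjusted p = 0.0173). For Chac1, which degrades glutathione, the diabetic values were 7.81, 6.36, 7.24, 5.21 and 7.57, and the insulin-treated ones lay between 7.56 and 8.38 (median 8.03). It rose by 1.21 (standard error 0.33, adjusted p = 0.0255). In both genes diabetic replicates 4 and 2 were the lowest. Replicate 5 reached the lower end of the insulin-treated range in both, and replicate 1 in Chac1 only, so that the groups overlapped. Atf3, a transcription factor induced by ATF4, had 8.0, 6.77, 7.16, 5.58 and 7.62 in diabetic and 7.21 to 8.92 (median 8.41) in insulin-treated rats. It rose by 1.27 (standard error 0.33, adjusted p = 0.0218), again with overlapping groups. The pseudokinase gene Trib3 rose by 0.83 (adjusted p = 0.0432), and the cytosolic tRNA synthetase genes Lars1 (0.48), Tars1 (0.44) and Nars1 (0.31) rose as well. The member that fell was Phgdh, the first enzyme of serine synthesis, by 0.99 (adjusted p = 0.0141, and by 0.31 with the lens score as a covariate) with groups that did not overlap. On a list of chaperones of the endoplasmic reticulum and related genes, 1 of 14 detected members rose, Herpud1 by 0.50 (adjusted p = 0.016). Without diabetic replicate 2 the adjusted p was 0.0531 for Slc7a1, 0.0728 for Chac1 and 0.0567 for Atf3, and without diabetic replicate 4 it was 0.0517 for Chac1 and 0.0539 for Atf3, and both replicates also decided the calls of Lars1, Tars1, Nars1 and Trib3 (up to 0.102, Trib3 without replicate 2). Trib3 further did not pass without insulin-treated replicate 1, 2, 3, 5, 6 or 7, Lars1 without insulin-treated 2, 5, 6 or 7 and Tars1 without insulin-treated 2, 6 or 7. Adding the lens score as a covariate gave a list median of 0.21 and differences of 0.83 for Slc7a1, 0.96 for Chac1, 1.04 for Atf3 and 0.55 for Trib3.

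Coq7, an enzyme of coenzyme Q synthesis in mitochondria, had log2 signals of 6.29, 6.11, 5.18, 6.73 and 6.88 in diabetic and 7.27 to 7.79 (median 7.56) in insulin-treated rats, so that every insulin-treated rat lay above every diabetic rat. It rose by 1.33 (standard error 0.23, adjusted p = 0.00331). Ears2, the mitochondrial synthetase that charges the tRNA for glutamate, was at 4.20, 3.82, 3.66, 4.78 and 4.09 in diabetic rats and at 5.10 to 5.54 (median 5.39) in insulin-treated rats. It rose by 1.25 (standard error 0.15, adjusted p = 0.000557), by 0.87 on BeadChip 1 and by 1.55 on BeadChip 2, also without overlap. The gene was dim, with a detection p under 0.05 on 2 of 5 diabetic and 7 of 7 insulin-treated arrays, so that it was tested only because of the group in which it was high, and with signals under 50 set to 50 its difference was lost. Beside the lens score as a covariate the differences were 1.46 for Ears2 (adjusted p = 0.0135) and 1.60 for Coq7 (adjusted p = 0.0732). Of the 69 detected genes of mitochondrial translation, 13 rose and 0 fell, with a median of 0.12. Besides Ears2 these were the tyrosine synthetase gene Yars2 (0.59), the release factor gene Mtrf1l (0.25) and 10 genes of mitochondrial ribosomal proteins, from 0.20 (Mrpl3, Mrpl4) to 0.34 (Mrpl1). Of the 13, Ears2 and Mrps5 kept their call whichever array was left out. Without diabetic replicate 2 the adjusted p was 0.0638 for Yars2 and 0.0603 for Mrps9, and the highest values for the other 9 ran from 0.0628 (Mrpl47, without diabetic replicate 4) to 0.116 (Mrpl4, without diabetic replicate 4). With only the 2 groups in the model 2 genes of the list passed. The mean log2 signal over the list ran from 8.64 to 8.79 in diabetic and from 8.81 to 8.87 in insulin-treated rats, and in the lens score model its median was 0.10. In contrast, 0 of 56 detected genes of the respiratory chain and ATP synthase passed (1 at an unadjusted p, median -0.04), and 0 of 57 cytosolic ribosomal protein genes did (6 at an unadjusted p, median -0.10).

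Genes around Myc and of the nucleolus, where ribosomes are assembled, moved upwards by small amounts. Of 36 detected members 8 rose and 1 fell (Mycl, by 0.50), with a median of 0.18. With only the 2 groups in the model 2 members passed. The promoters of Ears2 and of the 3 risers of the list that hold the E-box, the site CACGTG to which Max binds as a partner of Myc or Mnt, are shown with the site in capitals.
Ears2, chr1:186057025-186057324 (- strand): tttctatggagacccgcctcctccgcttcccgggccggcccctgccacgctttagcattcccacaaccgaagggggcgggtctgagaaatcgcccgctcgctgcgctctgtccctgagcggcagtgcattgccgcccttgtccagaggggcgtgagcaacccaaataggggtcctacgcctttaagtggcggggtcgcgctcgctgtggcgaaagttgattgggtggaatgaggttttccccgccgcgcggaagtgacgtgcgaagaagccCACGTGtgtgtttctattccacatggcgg
Max, chr6:101395241-101395540 (- strand): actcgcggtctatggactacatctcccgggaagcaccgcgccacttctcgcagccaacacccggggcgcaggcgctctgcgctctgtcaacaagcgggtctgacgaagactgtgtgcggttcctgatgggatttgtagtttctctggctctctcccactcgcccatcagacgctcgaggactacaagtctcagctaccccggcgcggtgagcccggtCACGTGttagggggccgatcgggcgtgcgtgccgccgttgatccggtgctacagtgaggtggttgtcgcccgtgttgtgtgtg
Mnt, chr10:60197709-60198008 (+ strand): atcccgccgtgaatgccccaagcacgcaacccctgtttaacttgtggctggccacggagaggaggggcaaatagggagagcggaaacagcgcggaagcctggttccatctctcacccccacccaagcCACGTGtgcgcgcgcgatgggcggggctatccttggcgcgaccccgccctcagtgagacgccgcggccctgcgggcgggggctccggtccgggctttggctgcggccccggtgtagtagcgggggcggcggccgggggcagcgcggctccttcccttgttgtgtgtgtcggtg
Ddx18, chr13:35295923-35296222 (- strand): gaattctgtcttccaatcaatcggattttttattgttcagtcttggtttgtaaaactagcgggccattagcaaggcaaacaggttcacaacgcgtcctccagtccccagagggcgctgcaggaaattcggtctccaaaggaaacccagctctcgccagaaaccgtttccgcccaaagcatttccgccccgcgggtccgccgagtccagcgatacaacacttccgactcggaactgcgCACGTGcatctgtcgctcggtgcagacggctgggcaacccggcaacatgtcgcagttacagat
The E-box was found in 6.65% of all promoters, in 9.48% of those of detected genes, in 14.1% of those of genes that rose and in 5.24% of those of genes that fell. It was present in 3 of the 7 risers of this list with a promoter and in 2 of the 13 of mitochondrial translation, Ears2 among them. Max rose by 0.44 (adjusted p = 0.0363) from 6.75, 6.53, 7.04, 6.56 and 6.83 in diabetic to between 6.83 and 7.62 (median 7.11) in insulin-treated rats. Mnt, a repressor that pairs with Max, rose by 0.35 (adjusted p = 0.044) and the nucleolar RNA helicase gene Ddx18 by 0.39 (adjusted p = 0.0302). The other risers were the RNA polymerase I subunit genes Polr1b (0.33) and Polr1c (0.21), and Nop58 (0.30), Rrs1 (0.29) and Noc4l (0.28), which act in rRNA processing and ribosome assembly. In Max, Mnt and Ddx18 the groups overlapped, and the adjusted p reached 0.0989, 0.106 and 0.0839 without diabetic replicate 2. The other arrays without which these genes did not pass were diabetic 1 and 4 and insulin-treated 2, 3 and 5 for Max, diabetic 4 and 5 and all insulin-treated ones but the third for Mnt, and diabetic 1 and insulin-treated 2, 6 and 7 for Ddx18. Nop58, Noc4l, Polr1c and Rrs1 lost their calls as well, with adjusted p up to 0.0662, 0.0547, 0.0737 and 0.0861 (without diabetic replicate 2, 2, 3 and 2). AP-1 sites (TGANTCA) were found in 3.48% of the promoters of genes that rose and 7.34% of those of genes that fell, against 4.76% of detected genes. FOXO sites (GTAAACA) were found in 2.83% and 2.45%, against 2.28%, and GC-boxes (GGGCGG) in 57.2% and 71.3%, against 62.6%. All motifs were searched on both strands, and a match is a description of the letters only.

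Immediate early genes, which answer within minutes to activity and stress, went both ways. Of 27 detected genes 3 rose and 5 fell, with a median of -0.13. Egr1, a zinc finger transcription factor of the fast response, was at 6.85, 7.20, 6.92, 7.24 and 6.74 in diabetic rats and at 7.55 to 10.32 (median 8.42) in insulin-treated rats. It rose by 1.78 (standard error 0.46, adjusted p = 0.021). No value overlapped, and the insulin-treated rats were spread widely, with an SD of 1.29 against 0.22 in diabetic rats. The increase was 1.11 on BeadChip 1 and 2.67 on BeadChip 2, and its call ended with only the 2 groups in the model (adjusted p = 0.0579) and without diabetic replicates 4 and 5 (0.0631) or 2 and 3 (0.0692). Jun, a subunit of AP-1, rose by 1.22 (adjusted p = 0.0406) and the phosphatase gene Dusp1 by 0.49 (adjusted p = 0.0148). Klf4, a transcription factor with roles in vessels and glia, stood at 6.39, 6.76, 7.41, 7.35 and 7.49 in diabetic rats and at 6.05 to 6.43 (median 6.18) in insulin-treated rats. It fell by 0.83 (standard error 0.15, adjusted p = 0.00455), and diabetic replicate 1 was the only diabetic rat within the insulin-treated range. Ccn1, a secreted matrix protein, fell by 0.80, Zfp36, which destroys mRNA of cytokines, by 0.76, Ier3 by 0.56 and the ERK phosphatase gene Dusp6 by 0.48. Jun did not pass without any 1 of diabetic replicates 2 to 5 and insulin-treated replicates 2, 3, 5, 6 and 7, with adjusted p from 0.0508 to 0.0927, nor Dusp6 without diabetic replicate 2, 3 or 4 or insulin-treated replicate 6 (0.0529 to 0.0808). In the lens score model the difference was 1.24 for Egr1, 1.15 for Jun and -0.82 for Klf4.

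Neuronal genes showed single changes rather than changes of whole lists. Opn4, the photopigment melanopsin of light-sensitive ganglion cells, was at 6.82, 6.70, 7.42, 7.22 and 7.12 in diabetic rats and at 7.88 to 8.49 (median 8.02) in insulin-treated rats. It rose by 1.09 (standard error 0.16, adjusted p = 0.00132) with no overlap and was the 1 gene to pass of 14 detected ganglion cell genes. Omg, the oligodendrocyte-myelin glycoprotein that restrains axon growth, was at 8.95, 8.24, 8.84, 8.90 and 8.61 in diabetic and at 9.31 to 9.72 (median 9.66) in insulin-treated rats. It rose by 0.88 (standard error 0.11, adjusted p = 0.000591), also with no overlap, while the myelin genes Pmp22 and Cnp fell by 1.18 and 0.46. Among 25 genes of dopamine and peptide transmitters 4 rose and 0 fell. Drd4, the dopamine receptor of photoreceptors, rose by 0.49 (adjusted p = 0.00578) from 11.32, 11.42, 11.50, 11.10 and 11.05 to between 11.46 and 11.91 (median 11.81), with diabetic replicate 3 inside the insulin-treated range, and Crh, corticotropin-releasing hormone, rose by 0.94 (adjusted p = 0.0148). Crh had a detection p under 0.05 on 1 of 5 diabetic arrays. Of 29 rod and cone genes 4 rose and 0 fell, with a median of 0.08. These were Crx, the transcription factor of photoreceptors, by 0.54 (adjusted p = 0.0143), the guanylate cyclase gene Gucy2f by 0.64, the rhodopsin kinase gene Grk1 by 0.37 and the cone phosphodiesterase gene Pde6c by 0.36. Gucy2f, Grk1 and Pde6c lost their call without some of the arrays, with an adjusted p of up to 0.108, 0.072 and 0.12 (without diabetic replicate 2 for Gucy2f and without diabetic replicate 4 for the other two). In the other direction Gabra5, a subunit of extrasynaptic GABA receptors, was at 5.07, 5.36, 5.09, 4.76 and 5.30 in diabetic and at 3.74 to 4.42 (median 4.14) in insulin-treated rats, where 2 of 7 arrays detected it. It fell by 1.00 (standard error 0.17, adjusted p = 0.00306) with no overlap, and by 1.01 with the lens score as a covariate. All its signals were under 50, and a floor of 50 ended the call. The presynaptic genes Rims2 (0.48) and Cplx1 (0.32) rose of 38 detected, and of 12 bipolar and 18 amacrine and horizontal cell genes 0 passed by limma (2 and 1 at an unadjusted p).

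Of DNA repair genes 15.2% rose and 0% fell, and of clock genes 14.3% rose and 7.14% fell. Over all genes 7.08% rose and 4.72% fell. Of 33 DNA repair genes 5 rose and 0 fell, with a median of 0.10. Mre11, the nuclease that processes double-strand breaks, was at 4.78, 4.33, 4.38, 4.79 and 4.66 in diabetic and at 5.08 to 5.52 (median 5.18) in insulin-treated rats. It rose by 0.64 (standard error 0.10, adjusted p = 0.00211) with no overlap. Xpa, a damage sensor of nucleotide excision repair, rose by 0.42 (adjusted p = 0.00368) with no overlap, and Rad52, Parp2 and Nsmce3 rose by 0.42, 0.30 and 0.26. Bcl2l10, an apoptosis regulator, was at 4.04, 4.40, 4.32, 3.85 and 4.75 in diabetic rats, detected on 3 of 5 arrays, and at 4.97 to 6.31 (median 5.47) in insulin-treated rats. It rose by 1.24 (standard error 0.21, adjusted p = 0.00331), while the cell death effector gene Bak1 fell by 0.30. Timeless, which acts in replication forks and beside the clock, was at 7.97, 8.63, 7.75, 7.93 and 8.38 in diabetic and at 6.42 to 7.24 (median 7.11) in insulin-treated rats. It fell by 1.12 (standard error 0.15, adjusted p = 0.000642) with no overlap, by 1.02 on BeadChip 1 and by 1.28 on BeadChip 2. The clock repressor gene Cry1 rose by 0.56 (adjusted p = 0.0144) and Per1 by 0.44 (adjusted p = 0.0496). The sampling hour of a rat is not given in the sources used here. Signals of Mre11, Bcl2l10 and Crh were low, and none of the 3 passed with signals under 50 set to 50. Without single arrays the adjusted p reached 0.143 for Per1 (diabetic replicate 4, and 8 other arrays ended the call), 0.0903 for Bak1 (diabetic replicate 4, and 6 others) and 0.0504 for Parp2 (diabetic replicate 2). The lens score as a covariate left differences of 0.70 for Mre11, 1.06 for Bcl2l10, 0.94 for Opn4, 0.79 for Omg, 0.24 for Drd4, 0.77 for Crh, 0.49 for Crx, 0.46 for Xpa and -1.05 for Timeless.

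Among the 15 largest increases, Coq7, Fbxl12, Oser1 and Cyp2u1 belonged to no list. Fbxl12, which guides ubiquitin ligases to their substrates, was at 4.26, 4.43, 4.37, 5.04 and 4.38 in diabetic rats and at 5.05 to 5.71 (median 5.26) in insulin-treated rats. It rose by 0.85 (standard error 0.15, adjusted p = 0.00347), and by 0.82 in the lens score model, and the groups met closely but did not overlap. With signals under 50 set to 50 the difference was 0.01 (adjusted p = 0.597). Oser1, an oxidative stress response gene, was at 8.54, 8.62, 9.38, 8.0 and 8.88 in diabetic and at 9.44 to 9.80 (median 9.69) in insulin-treated rats. It rose by 0.96 (adjusted p = 0.0198, and 0.0581 without diabetic replicate 4) with no overlap, and by 0.20 in the lens score model. Cyp2u1, a fatty acid hydroxylase, rose by 1.01 (adjusted p = 0.0474), was detected on 2 of 5 diabetic arrays and lost its call without any 1 of 8 arrays (up to 0.131, diabetic replicate 2).

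**Figure D2:**
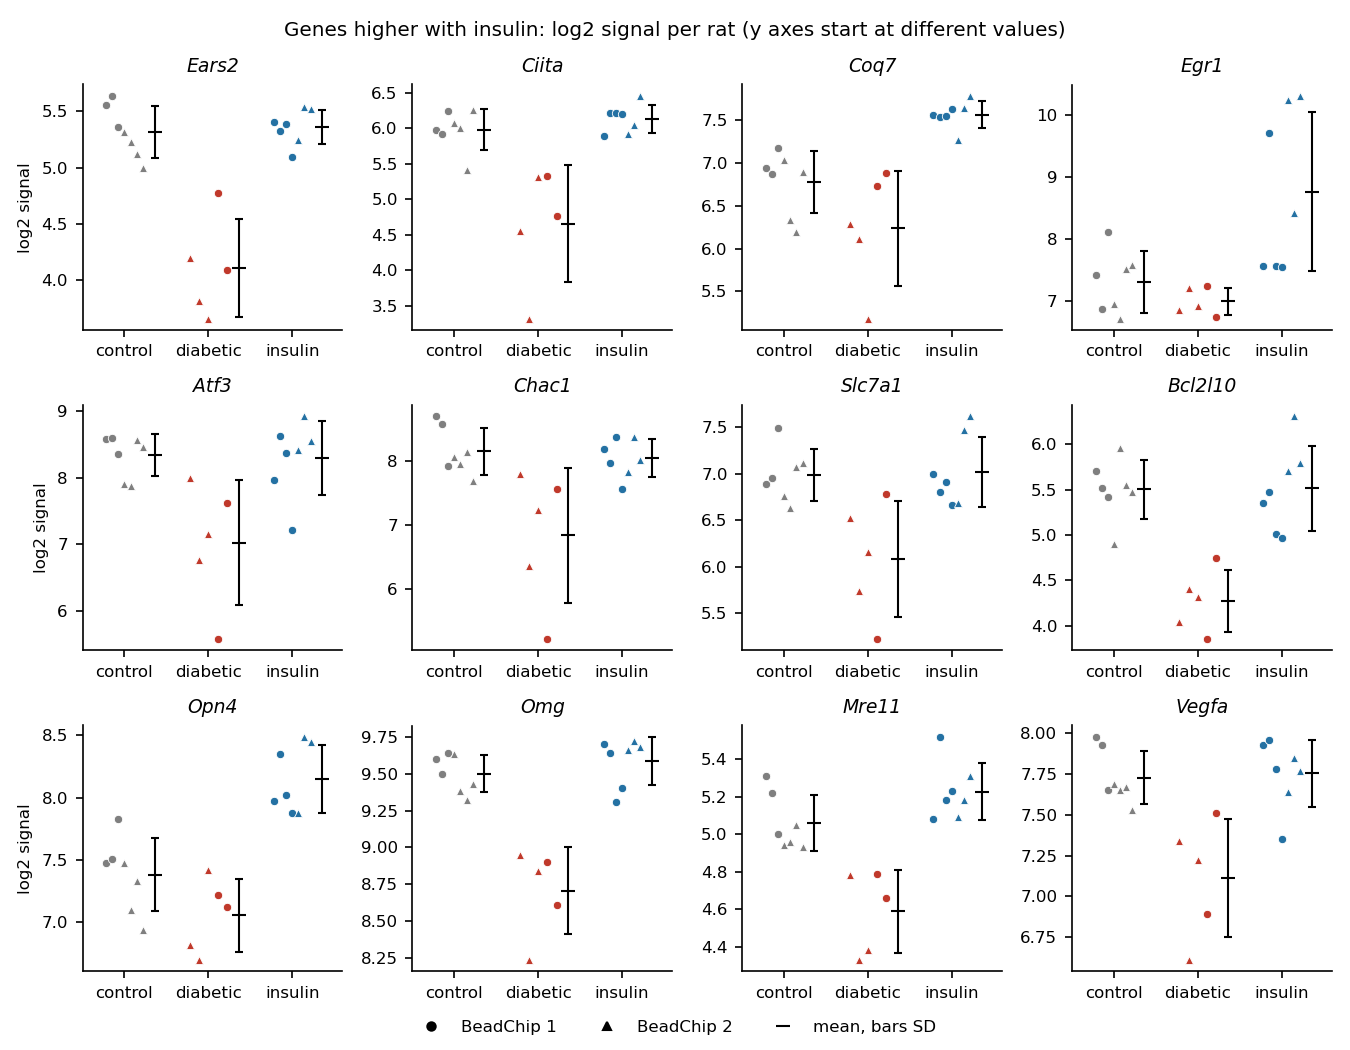
Log2 signal of 12 genes higher with insulin in each of 7 control, 5 diabetic and 7 insulin-treated rats, 1 point per rat, with circles for BeadChip 1 and triangles for BeadChip 2. Black bars give the mean and SD, and the y axes start at different values. In Ears2, Ciita, Coq7, Egr1, Bcl2l10, Opn4, Omg and Mre11 every insulin-treated rat lies above every diabetic rat, and in Atf3, Chac1, Slc7a1 and Vegfa the groups overlap.

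Of 20 detected genes of NF-kB, TNF receptors, chemokines and adhesion, through which cytokines act on cells in inflammation, 4 fell and 0 rose in insulin-treated rats, while the other 16 did not pass and the list's median was -0.03. Tnfrsf12a, the receptor of the cytokine TWEAK, was at 5.58, 5.67, 6.61, 6.61 and 5.50 in diabetic rats and at 3.50 to 5.05 (median 4.08) in insulin-treated rats, where 2 of 7 arrays detected it. It fell by 1.86 (standard error 0.30, adjusted p = 0.00239) with no overlap. Nfkb2, the p100 subunit of the alternative pathway, was at 4.91, 5.88, 5.43, 4.66 and 5.61 in diabetic and at 3.43 to 4.69 (median 3.74) in insulin-treated rats, where 1 of 7 arrays detected it. It fell by 1.42 (standard error 0.25, adjusted p = 0.0037), and only diabetic replicate 4 touched the insulin-treated range. The TNF receptor gene Tnfrsf1a fell by 1.35 (adjusted p = 0.01) and the adhesion molecule gene Vcam1 by 0.78 (adjusted p = 0.0346). In the lens score model the differences of these 4 genes were -1.42, -1.48, -0.92 and -0.51, and with a floor of 50 the adjusted p was 0.107 for Tnfrsf12a, 0.361 for Nfkb2 and 0.0777 for Tnfrsf1a. Vcam1 lost its call without diabetic replicates 1 to 4 or insulin-treated replicates 1, 2, 3 and 5 (adjusted p up to 0.0992, without diabetic replicate 4), and Icam1, another adhesion molecule gene, had a difference of -0.60 (adjusted p = 0.154).

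Genes of class I antigen presentation were lower, and the class II transactivator gene was higher, in insulin-treated rats. Of 27 detected genes of antigen presentation and the interferon response 11 fell and 1 rose, with a median of -0.48. Tapbp, the chaperone tapasin that loads peptides on class I molecules, was at 7.52, 8.11, 7.95, 8.02 and 7.96 in diabetic and at 6.54 to 7.50 (median 7.11) in insulin-treated rats. It fell by 0.80 (standard error 0.14, adjusted p = 0.00331), and the nearest rats of the 2 groups were at 7.52 and 7.50. The other genes that fell were RT1-A2 and RT1-M3-1 of class I (by 0.87 and 0.48), the immunoproteasome genes Psmb8, Psmb9, Psme1 and Psme2 (by 0.86, 1.06, 0.51 and 0.40), the interferon-induced genes Gbp2, Ifitm3 and Ifi35 (by 1.56, 1.55 and 0.57) and Irf1 (by 0.28). The member that rose was Ciita, the transactivator of class II genes, which was at 4.56, 3.32, 5.32, 5.33 and 4.77 in diabetic rats, detected on 4 of 5 arrays, and at 5.89 to 6.46 (median 6.20) in insulin-treated rats. It rose by 1.47 (standard error 0.25, adjusted p = 0.00331) with no overlap. In the lens score model the difference was 1.56 for Ciita and -0.77 for Tapbp, but -0.22 for Ifitm3, and the list's median was -0.23. Of 10 detected microglia and leukocyte genes 1 fell, the complement gene C1qc by 1.03 (adjusted p = 0.0461). Their mean log2 signal ran from 6.08 to 7.68 in diabetic and from 6.06 to 7.13 in insulin-treated rats, and their part in these changes was not tested. Among 14 complement genes C2 also fell, by 1.07, and the list's median was -0.58, and -0.07 with the lens score as a covariate. RT1-A2, Psmb8, Psmb9 and Ifitm3 each lost their call without several single arrays, with adjusted p up to 0.0659 (without diabetic replicate 5), 0.119 (4), 0.119 (4) and 0.106 (4), and Gbp2 without diabetic replicate 4 (0.0544). The same held for Ifi35 (up to 0.0817, diabetic replicate 4), Irf1 (0.0725, insulin-treated replicate 7), C1qc (0.129, diabetic replicate 4) and C2 (0.0652, diabetic replicate 4).

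Growth factors of vessels moved apart. Pgf, placental growth factor, a ligand of the VEGF receptor Flt1, was at 5.31, 5.56, 6.06, 6.21 and 5.41 in diabetic rats and at the floor of 3.32 in 6 of 7 insulin-treated rats, with 3.98 in the other. No insulin-treated array detected it, so that its signal there has only an upper bound. The diabetic mean of 5.71 was at least 2.84-fold higher than that bound, a mean of 4.20 on the log2 scale. The bound takes on each array the higher of the gene's own value and the lowest signal of a detected probe. The fitted difference was -2.29 (standard error 0.33, adjusted p = 0.00132), -2.32 on each BeadChip and -0.20 with a floor of 50 (adjusted p = 0.123). Vegfa, the main angiogenic ligand, was at 7.34, 6.61, 7.22, 6.89 and 7.51 in diabetic and at 7.35 to 7.96 (median 7.78) in insulin-treated rats. It rose by 0.64 (standard error 0.14, adjusted p = 0.00938), and only diabetic replicate 5 reached into the insulin-treated range. Pdgfa and the VEGF co-receptor gene Nrp1 fell by 0.50 and 0.38. Over the 20 genes of this list the median was 0.02, which became -0.01 after quantile normalization or neqc. Pdgfa and Nrp1 lost their calls without single arrays (up to 0.124 and 0.107, without diabetic replicate 4). The lens score model gave differences of -1.60 for Pgf and 0.58 for Vegfa, and 0 of 14 detected genes of endothelium and pericytes passed by limma (8 at an unadjusted p).

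Of 25 detected genes of TGF-beta, activin and BMP signalling, which shape matrix and scarring, 7 fell and 2 rose, with a median of -0.11. The ligand gene Tgfb1 was at 5.85, 5.44, 5.23, 5.71 and 4.34 in diabetic rats and at 3.32 to 4.40 (median 3.32) in insulin-treated rats, where 1 of 7 arrays detected it. The fitted difference of -1.70 (standard error 0.36, adjusted p = 0.00991) is thus taken against signals mostly not above background, and it was -0.05 with a floor of 50 (adjusted p = 0.209). Tgfb2, another ligand gene, fell by 0.54 (adjusted p = 0.00611) from 10.26, 10.14, 10.21, 10.20 and 10.07 to between 9.56 and 9.69 (median 9.62), with no overlap. Fstl3, which binds and blocks activin, fell by 1.60 (adjusted p = 0.00588) with no overlap, and Tgif1, Bmp7, Fstl1 and Id1 fell by 1.46, 1.14, 0.90 and 0.65. The receptor gene Acvr2b (0.34) and the signal transducer gene Smad2 (0.38) rose. These 6 genes lost their calls without single arrays, with adjusted p up to 0.0632, 0.131, 0.133, 0.124, 0.0923 and 0.0883 (without diabetic replicate 4, 2, 4, 2, 2 and 2). Of 29 basement membrane and matrix genes 6 fell and 0 rose, with a median of -0.47. Lama5, a chain of laminin, was at 6.50, 6.64, 5.48, 6.78 and 5.39 in diabetic and at 3.32 to 4.44 (median 4.00) in insulin-treated rats. It fell by 2.28 (standard error 0.45, adjusted p = 0.00695) with no overlap, was detected on 2 of 7 insulin-treated arrays and had an adjusted p of 0.0524 with a floor of 50. Sparc, which binds collagen, fell by 1.15 (adjusted p = 0.00374) with no overlap, and Fbln1, Fmod, P3h4 and Lamb2 fell by 2.85, 1.83, 1.06 and 0.65. Fbln1 was at 11.10, 11.27, 8.66, 11.14 and 7.34 in diabetic and at 6.42 to 8.35 (median 6.88) in insulin-treated rats. In controls it ran from 6.38 to 11.09 (median 10.96). Diabetic replicates 1, 2 and 4 were also the highest diabetic rats for Fmod, Bmp7, Fstl1, Igfbp7 and Gstm2. These genes thus varied together between rats, and the cause was not tested. In the lens score model the difference was -1.39 for Tgfb1, -0.38 for Tgfb2, -0.91 for Fstl3, -1.17 for Lama5 and -0.69 for Sparc, but -0.60 for Fbln1 and -0.21 for Fmod. Fbln1 and Fmod lost their call without any 1 of diabetic replicates 1, 2 and 4 and insulin-treated replicates 1, 2, 5 and 7 (up to 0.108 for both, without diabetic replicate 2), and Lamb2 without these and insulin-treated replicate 6 (up to 0.117).

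Among genes of reactive glia, those that passed were all lower in insulin-treated rats. Of 30 detected genes of reactive gliosis and the acute phase 11 fell, 0 rose and 19 did not pass. The list's median was -0.86, and -0.20 with the lens score as a covariate. Lgals3, the lectin galectin-3 of phagocytes and glia, was at 9.47, 8.94, 9.34, 11.74 and 10.56 in diabetic rats and at 7.18 to 9.15 (median 7.62) in insulin-treated rats. It fell by 2.16 (standard error 0.48, adjusted p = 0.0117), and by 0.46 with the covariate. Vim, the filament protein of Müller glia, was at 12.73, 12.39, 12.31, 13.12 and 12.27 in diabetic and at 11.31 to 12.19 (median 11.49) in insulin-treated rats, so that the groups did not overlap. It fell by 0.93 (standard error 0.22, adjusted p = 0.0148), and by 0.19 with the covariate. The other genes that fell were S100a6, S100a11, Tnfrsf12a, Carhsp1, Sparc, Tagln2, Anxa2, Lgals1 and Cd44, from 2.41 (S100a6) to 0.79 (Cd44). With the covariate Cd44 kept a difference of -0.67, whereas S100a6 stood at 0.13. Vim is also a filament gene of lens cells. S100a6 lost its call without diabetic replicate 1, 2 or 4 or insulin-treated replicate 1, 5 or 7 (adjusted p up to 0.092, without diabetic replicate 4), S100a11 without any 1 of 8 arrays (up to 0.129, diabetic replicate 2) and Lgals1 without diabetic replicate 2 or 4 (0.0563 and 0.0513).

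Of 24 heat shock genes 3 fell, among them the small heat shock protein genes Hspb1 and Cryab (by 2.34), which is also a lens crystallin, and 1 rose (Hspb6, by 0.26). Hspb1 was at 8.27, 8.64, 8.79, 11.68 and 9.56 in diabetic and at 6.51 to 8.78 (median 6.72) in insulin-treated rats. It fell by 2.16 (standard error 0.53, adjusted p = 0.017), and by 0.48 with the lens score as a covariate. Of 36 genes of oxidative stress and the NRF2 response 4 fell and 2 rose, with a median of -0.15. Hmox1, heme oxygenase, was at 6.80, 5.92, 6.46, 10.09 and 8.88 in diabetic and at 5.27 to 6.37 (median 5.67) in insulin-treated rats. It fell by 1.87 (standard error 0.50, adjusted p = 0.0242), by 3.63 on BeadChip 1, which held the 2 highest diabetic rats, and by 0.75 on BeadChip 2. The glutathione transferase genes Gstm2 and Gstm1 fell by 2.14 and 0.53 and the ferritin light chain gene Ftl1 by 0.79, while Txnrd2 and Keap1 rose by 0.39 and 0.28. Among 18 detected Müller glia genes 4 fell, Vim, Cyp26a1, Id1 and Dbi. With the lens score as a covariate the differences were -0.58 for Hmox1, -0.53 for Gstm2, -0.19 for Gstm1, -0.31 for Ftl1 and 0.48 for Txnrd2. Without diabetic replicate 5 the adjusted p of Hmox1 was 0.0528, and Gstm2 did not pass without diabetic replicate 1, 2 or 4 (0.0528, 0.0758 and 0.0639). Calls of Gstm1 and Txnrd2 (up to 0.0584 and 0.0563), Keap1 (0.0674), Hspb6 (0.0805), Cyp26a1 (0.0814) and Id1 (0.124) also rested on single arrays, diabetic replicate 2 or 4 giving the highest p. Without diabetic replicates 4 and 5 the differences were -1.40 for Lgals3, -1.34 for Hspb1 and -0.63 for Hmox1, and all 3 calls were lost.

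**Figure D3:**
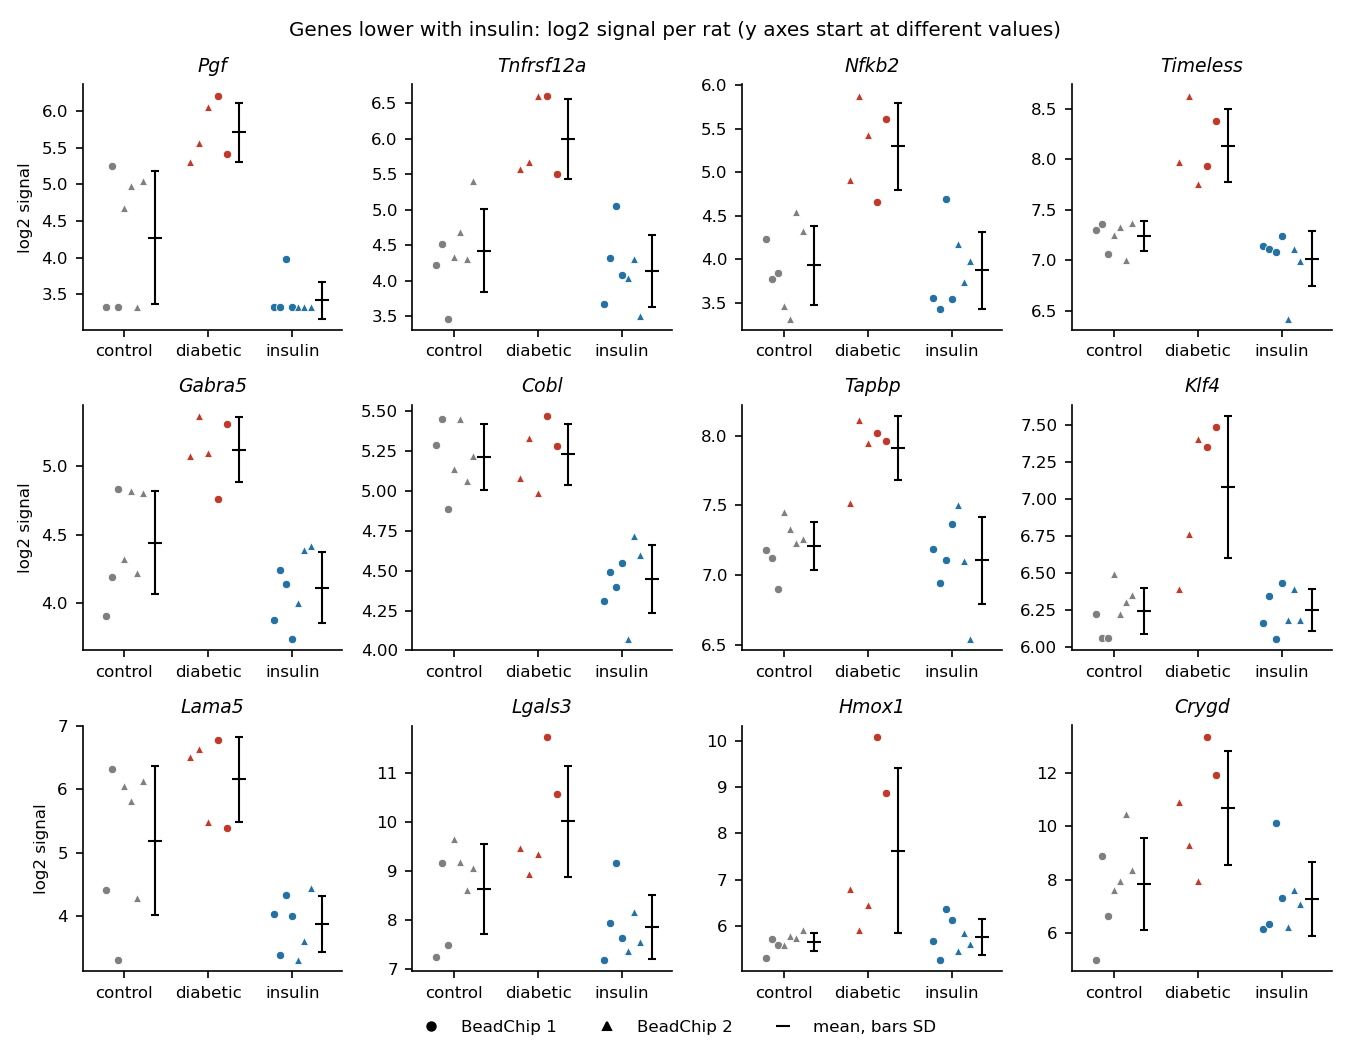
Log2 signal of 12 genes lower with insulin in each of 7 control, 5 diabetic and 7 insulin-treated rats, 1 point per rat, with circles for BeadChip 1 and triangles for BeadChip 2. Black bars give the mean and SD, the y axes start at different values, and 3.32 is the floor. In Pgf, Tnfrsf12a, Timeless, Gabra5, Cobl, Tapbp and Lama5 no insulin-treated rat reaches the diabetic range, whereas Lgals3, Hmox1 and Crygd are highest in the 2 diabetic rats of BeadChip 1.

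Lens genes had a larger share of calls than any other list plotted here. Of 13 detected lens genes 12 fell and 0 rose, with a median of -2.92, from -4.45 for the membrane protein gene Lim2 to -0.66 for the transcription factor gene Hsf4. Crygd, a crystallin of lens fibres, had a difference of -3.42 (adjusted p = 0.0255), -5.18 on BeadChip 1 and -2.40 on BeadChip 2, and 0.19 with the lens score as a covariate. Without diabetic replicate 4 its adjusted p was 0.0769. The lens genes make up the score, so that their differences shrink in the model with it by construction. Gja3, a connexin of lens fibres, was at 7.18, 6.27, 4.46, 8.28 and 7.27 in diabetic rats and at the floor to 4.21 in insulin-treated rats, where 1 of 7 arrays detected it, and its fitted difference was -3.08 (adjusted p = 0.0165). Cd24, a surface glycoprotein of immature cells that was on no list, fell by 2.93 (adjusted p = 0.0271, up to 0.0801 without diabetic replicate 4), and by 0.09 in the lens score model. The loss of signal was larger on BeadChip 1 for Lgals3 (-3.18 against -1.56), Hspb1 (-3.31 against -1.45) and Hmox1, whereas it was alike for Pgf, Timeless (-1.02 against -1.28), Nfkb2 (-1.33 against -1.44) and Tubb2b (-0.60 against -0.62). Of 13 genes of the pigment epithelium 1 fell, Ptgds by 0.68 (not without diabetic replicate 1, 2 or 4), and of 6 erythrocyte and 7 muscle genes 0 passed by limma (2 and 1 at an unadjusted p).

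**Figure D4:**
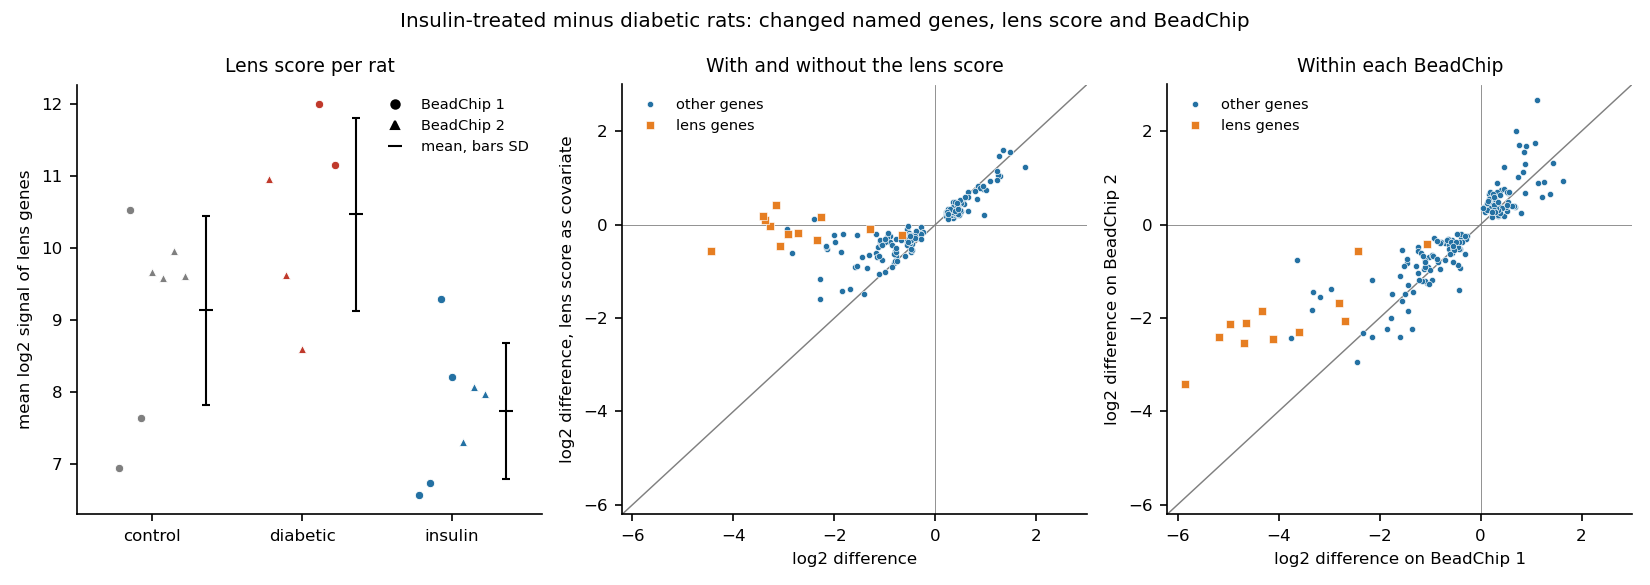
Left, the lens score (mean log2 signal of 13 lens genes) of each rat with group mean and SD. Middle, the log2 difference of genes named by list or rank that passed, without (x axis) and with (y axis) the lens score as a covariate, and right, the same genes on BeadChip 1 (x axis) and BeadChip 2 (y axis), with lens genes as orange squares and the line of equality in grey. In the middle plot the lens genes lie far from the line, near 0 on the y axis. This is built in, since the score is their own mean. Some other lower genes (Nfkb2, -1.42 and -1.48, or Tubb2b, -0.61 and -0.67) lie close to the line.

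Of actin regulators 19.4% fell and 2.78% rose, and of tubulin and microtubule genes 8.33% fell and 0% rose. Over all genes 4.72% fell and 7.08% rose. The medians of the 2 lists were -0.05 and 0.02. Cobl, which nucleates actin filaments, was at 5.08, 5.33, 4.99, 5.47 and 5.28 in diabetic and at 4.07 to 4.72 (median 4.49) in insulin-treated rats. It fell by 0.78 (standard error 0.12, adjusted p = 0.00171) with no overlap, and by 0.58 with the lens score as a covariate. It was detected on 6 of 7 insulin-treated arrays, all its signals were under 50, and a floor of 50 ended the call. Of 36 actin regulators 7 fell and 1 rose, the espin gene Espn by 0.47. The others that fell were Tagln2, Gsn, Ezr, Tpm1, Tpm4 and Actb, by 1.12 to 0.29. Actb, 1 of whose 3 detected probes is used here, was the reference gene of the study's qPCR. The study reported it unchanged between groups in a preliminary quantitation. Its decrease here was 0.05 with the lens score as a covariate. Of 36 tubulin and microtubule genes 3 fell, Tubb6 by 2.01, Tubb2b by 0.61 and Kif5c by 0.52. Tubb2b, a tubulin of young neurons and glia, was at 7.73, 8.17, 8.35, 7.98 and 8.14 in diabetic and at 7.34 to 7.64 (median 7.46) in insulin-treated rats. Its decrease had a standard error of 0.09 and an adjusted p of 0.00147, with no overlap, and it was 0.67 with the lens score as a covariate, whereas that of Tubb6 was then 0.22. Gsn, Tpm1, Actb, Kif5c and Tubb6 lost their calls without single arrays, with adjusted p up to 0.0835, 0.123, 0.119, 0.0632 and 0.0539 (without diabetic replicate 4, 4, 4, 5 and 4).

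Of 27 genes of glucose transport, glycolysis and the polyol pathway 1 fell, Sord, the enzyme that turns sorbitol into fructose, by 0.48 (adjusted p = 0.0224, and 0.0515, 0.0504 and 0.0586 without diabetic replicates 1, 2 and 4). Of 30 genes of insulin receptor, AKT and FOXO signalling 1 rose (3.33%) and 2 fell (6.67%), beside 7.08% and 4.72% over all genes. Foxo3 rose by 0.48 (adjusted p = 0.0242) from 6.00, 5.41, 6.32, 5.84 and 5.84 to between 6.17 and 6.84 (median 6.32), and the adaptor gene Shc1 and the binding protein gene Igfbp7 fell by 0.57 and 1.17. Without diabetic replicate 2 or 4 the adjusted p of Foxo3 was 0.0728 and 0.0518. On a list of 27 genes of fatty acid oxidation, PPAR-alpha and related genes 6 fell, Cidea, Acadl, Acaa2, Ucp2, Decr1 and Hadh, by 0.83 to 0.28. The list's median was -0.05. Its 1 riser was Ppara, the nuclear receptor that controls genes of fatty acid oxidation. It was at 5.57, 4.67, 5.66, 5.39 and 5.20 in diabetic and at 5.66 to 6.60 (median 6.10) in insulin-treated rats, and it rose by 0.79 (standard error 0.22, adjusted p = 0.0267, and 0.0861 without diabetic replicate 2, 0.054 and 0.0501 without insulin-treated replicates 2 and 5). Igfbp7, Cidea, Acadl, Acaa2, Decr1 and Hadh did not pass without some single arrays either (up to 0.123, 0.0966, 0.0773, 0.0909, 0.0973 and 0.0961, without diabetic replicate 2, 1, 4, 4, 4 and 4). In the lens score model the differences were 0.46 for Foxo3, 0.72 for Ppara, -0.33 for Sord, -0.21 for Igfbp7, -0.64 for Cidea and -0.10 for Acadl. Of 26 cholesterol genes Scap and Abcg1 rose by 0.22 and 0.27 and Dhcr7 fell by 0.46, the first 2 with adjusted p up to 0.11 and 0.117 without diabetic replicates 2 and 4. Of 35 proteasome subunit genes 0 passed by limma (2 at an unadjusted p).

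**Figure D5:**
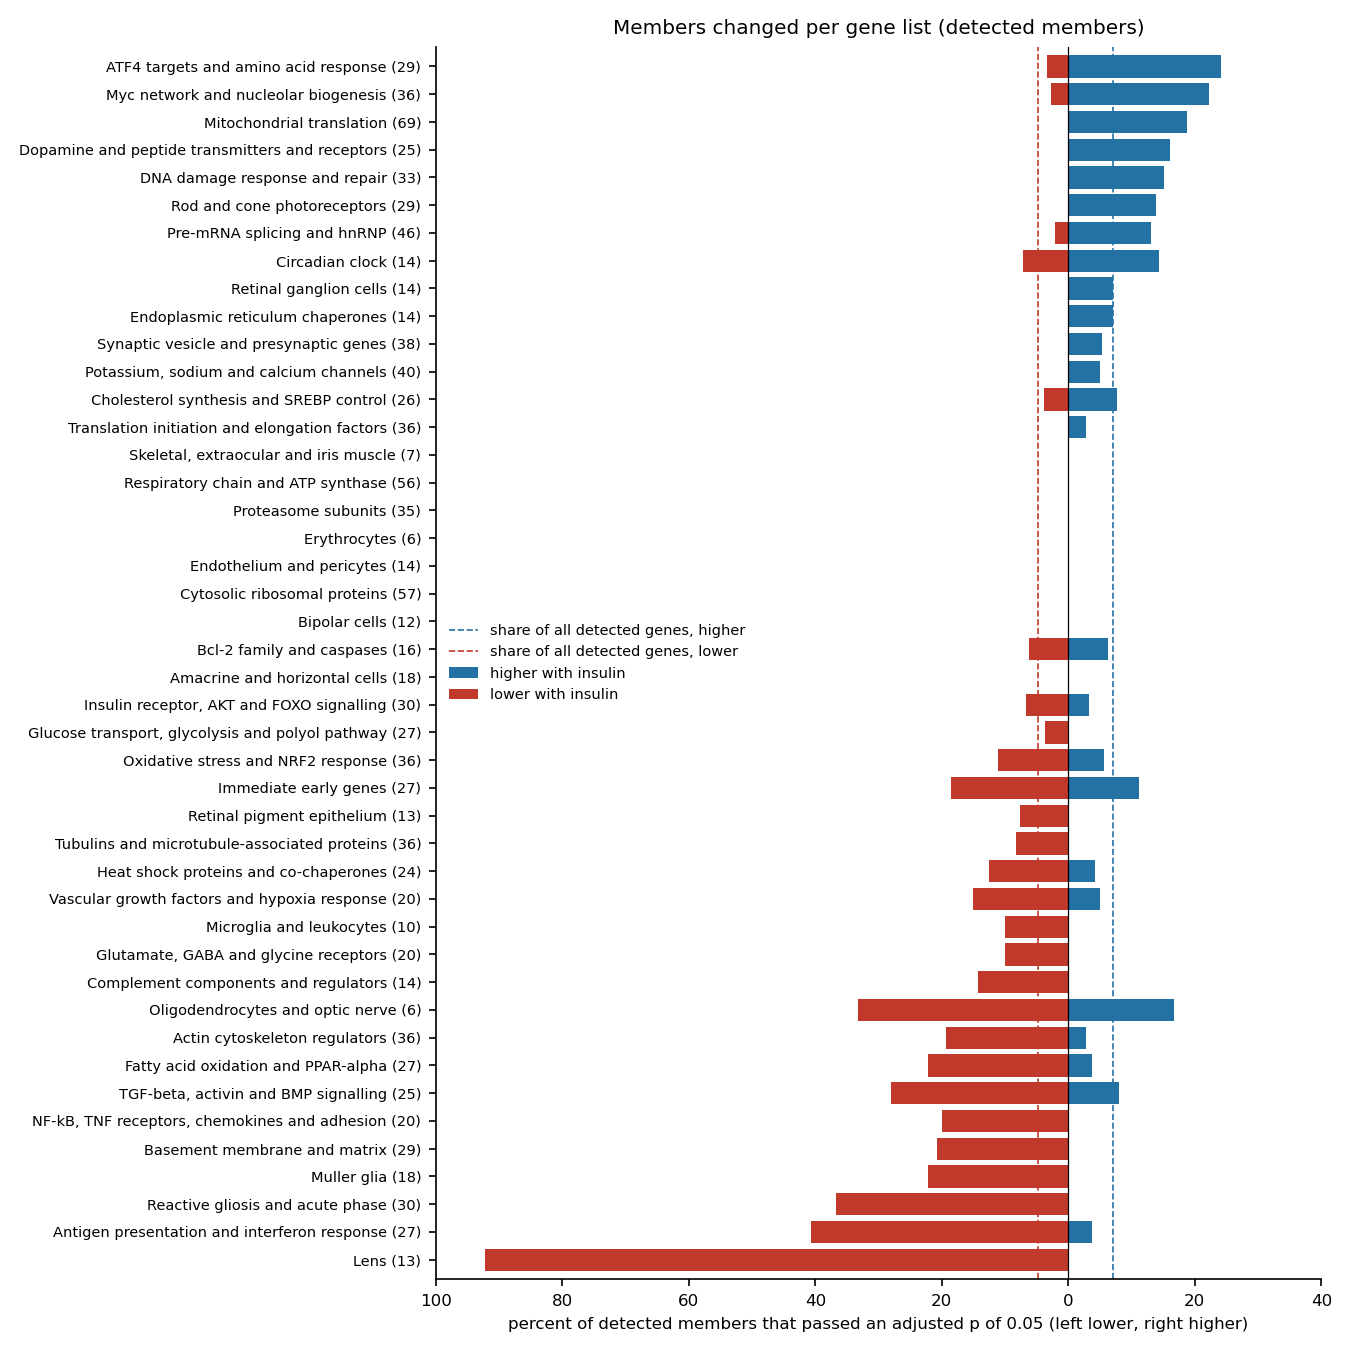
Percent of the detected members of 44 gene lists that passed an adjusted p of 0.05, to the right for higher and to the left for lower with insulin, with the number of detected members in brackets. Dashed lines give the share over all detected genes (7.08% higher and 4.72% lower). ATF4 targets reach 24.1% to the right, and antigen presentation genes 40.7% and lens genes 92.3% to the left.

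The controls entered the same model and shared its arrays, so that each difference from control below is not independent of the comparison above. Ears2 averaged 5.36 (SD 0.16) in the 7 insulin-treated rats and 5.32 (SD 0.23) in the 7 controls, against 4.11 (SD 0.43) in the 5 diabetic rats. For Omg the means were 9.59 (SD 0.17), 9.50 (SD 0.13) and 8.71 (SD 0.29), and for Bcl2l10 they were 5.52 (SD 0.47), 5.50 (SD 0.32) and 4.27 (SD 0.35) in the same order. Klf4 and Timeless, which fell, averaged 6.25 and 7.01 with insulin, 6.24 and 7.24 in controls and 7.08 and 8.13 in diabetic rats. Other genes stood apart from control. Cobl averaged 5.22 (SD 0.21) in controls and 5.23 (SD 0.20) in diabetic rats and stood 0.77 below control in insulin-treated rats (adjusted p = 0.00918). Opn4 averaged 7.38 (SD 0.29) in controls, 7.06 (SD 0.30) in diabetic and 8.15 (SD 0.27) in insulin-treated rats, 0.77 above control (adjusted p = 0.104). Coq7 stood 0.78 above control (adjusted p = 0.227) and Egr1 1.46 above control (adjusted p = 0.233). Phgdh (-0.93, adjusted p = 0.186) and Tgfb2 (-0.46, adjusted p = 0.155) stood below control in insulin-treated rats and differed from control by 0.07 and 0.09 in diabetic rats. Fbln1 (-2.57), Gstm2 (-2.43), Fmod (-1.60), Bmp7 (-1.31), Igfbp7 (-1.12) and Fstl1 (-0.91) also stood below control with insulin (limma adjusted p of 0.155 to 0.261). Their differences from control in diabetic rats were 0.28, -0.29, 0.23, -0.17, 0.05 and -0.01. Among controls, Phgdh was lowest in replicates 1 and 3 (6.32 and 6.56), which also had the lowest lens scores (6.945 and 7.629). The same controls were the lowest for Fbln1, Gstm2, Fmod, Bmp7, Igfbp7 and Fstl1. The part of lens tissue in these differences was not tested. Of these differences between insulin-treated and control rats, only that of Cobl passed the threshold.

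A list of genes was also measured by qPCR in the study, which chose it on these arrays, so that its direction is not independent evidence. Of its 21 detected members 1 rose and 3 fell between diabetic and insulin-treated rats, with a median of -0.46. Nppa, the natriuretic peptide precursor, rose by 0.34 (adjusted p = 0.0407), from 5.57, 5.32, 5.23, 5.36 and 5.52 to between 5.50 and 5.94 (median 5.76), and lost its call without any 1 of 8 arrays (adjusted p up to 0.0932, without diabetic replicate 2). Carhsp1, an RNA-binding protein, fell by 1.31 (adjusted p = 0.0088) from 7.96, 7.51, 8.47, 8.98 and 7.79 to between 6.49 and 7.42 (median 6.68), with no overlap. The other two, Lgals3 and Hspb1, are described above. Among those that did not pass, Timp1, an inhibitor of matrix proteases, had a difference of -1.39 (adjusted p = 0.0546), Txnip, which responds to glucose, of -0.41 (adjusted p = 0.263), and the metallothionein gene Mt1 of -0.24 (adjusted p = 0.537). A2m, Chi3l1 and Fabp7 did not pass either, with differences of -0.40, -0.71 and -0.71 (limma adjusted p = 0.446, 0.337 and 0.262).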

How the data were processed

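Retinal RNA of 1 rat per array was hybridised to Illumina RatRef-12 BeadChips, without labels that name litters or shared cultures. The authors had removed arrays with high background or wash artefacts and had made the deposited signal intensities in GenomeStudio (1.0.6 per the submitters' notes on processing), which subtracted background and scaled arrays to a common average. A detection p-value of each probe on each array, from negative control beads, was deposited beside them, as was a table of non-normalized intensity values, used for alternatives only. Bead intensities give no read depth, and the number of arrays limits the precision. Mean non-normalized intensity per array was 318.2 to 409.9 in diabetic and 307.4 to 475.2 in insulin-treated rats.

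Groups follow the labels. Intensities under 10 were set to 10 and log2 transformed. The tested probes were detected (p under 0.05) on all arrays of the diabetic or of the insulin-treated group, and the test was made with limma 3.58.1 in R 4.3.3 (lmFit, eBayes) in 1 model of control, diabetic and insulin-treated rats, without covariates, with Benjamini-Hochberg adjustment over all 10603 probes. Every p in the text is from this moderated test and two-sided, and changes are log2 differences, insulin-treated minus diabetic. Standard errors belong to these differences. A gene with several probes is represented by that with the highest mean signal. Of the probes on the array, 13259 had 1 symbol in the platform annotation and 9258 had none. On simulated data from these means the model recovered 60.6%, 92.5% and 99.7% of changes of 0.5, 1 and 2 log2 units and called 0.075% of unchanged probes. The simulated noise was independent between probes and had the same SD in all groups, without lens score or BeadChip differences. These shares therefore describe that simpler setting and not the error rate on the real arrays.

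The genes named were the 15 with the largest increase and the 15 with the largest decrease among those that passed, up to 4 members per gene list in order of p (or that with the smallest p where none passed), and the qPCR list. Further list members were named after their values were seen. Members, lists and motifs were chosen with earlier results of these data known. Replicate numbers do not pair the rats, since deviations of same-numbered diabetic and insulin-treated rats correlated at -0.124 to 0.083. Alternatives comprised other floors, filters, normalizations, group sets, weights, the methods' t-test, blocks and arrays left out. Those with the lens score as a covariate, within a BeadChip, and without diabetic replicates 2 and 3 or 4 and 5 were added after seeing the data. Promoters are from RefSeq (GRCr8), at the first listed start of each gene.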

Additional observations from a re-analysis of the deposited data

Results flagged for a closer look

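In 18 of 296 groups of values tested by Dixon's test, 1 rat stood apart from the rest of its group, where chance gives about 1 in 20. Insulin-treated replicate 3, which had the highest lens score of its group (9.296), accounted for 8. In this rat the log2 signal was the highest of the insulin-treated group for Crygd (10.13, next 7.60), Cryge (7.89, next 5.63), Timp1 (9.30, next 7.60), C1qc (6.43, next 5.49), Jak3 (9.88, next 8.74) and Pgf (3.98, all others at the floor). It was the lowest for Dbh (5.76, next 6.06) and Kcne2 (7.65, next 8.35). Diabetic replicate 4, which had the highest lens score of all rats, was the highest diabetic rat for Acadl (8.51, next 7.91) and Fbxl12 (5.04, next 4.43) and the lowest for Hspb6 (10.14, next 10.28). Insulin-treated replicate 6 was the highest for Foxo3 (6.84, next 6.41) and Pdgfa (9.12, next 8.73). Single values were low for Cryba2 in diabetic replicate 3 (12.15, next 13.91), Tapbp in diabetic replicate 1 (7.52, next 7.95), Dhcr7 in insulin-treated replicate 1 (7.26, next 7.65), Phgdh in insulin-treated replicate 2 (5.81, next 6.20) and Timeless in insulin-treated replicate 5 (6.42, next 6.99). The part of lens tissue in these values was not tested.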

How the results depend on the processing

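Against 1132 probes called, the count was 1029 to 1237 under other floors, a stricter detection filter of 0.01, a filter over all 3 groups, array weights, an intensity trend, a BeadChip block, quantile normalization, neqc and median-centred non-normalized signals. The share of higher calls, 62.3%, was 55.1% after quantile normalization, 54.1% after neqc, 71.0% after median centring, 47.8% with only the 2 groups and 52.0% with a replicate block. Without a detection filter 595 probes were called, with only the 2 groups in the model 594, by the methods' t-test after adjustment 352, and by an unadjusted limma p under 0.05 with a fold change over 1.2 2087. A replicate block, although the numbers do not make pairs, gave 504. Leaving out 1 array gave 552 to 1514, and the arrays that moved the count by over 1.5 times were diabetic replicates 2 (552) and 4 (681) and insulin-treated replicates 5 (733), 6 (727) and 7 (717). Of 123 called genes named by the rule, 70 kept their call without a filter, 90 with only the 2 groups, 57 by the t-test, 79 with the replicate block and 92 with the floor of 50. Of 174 called genes described, 71 kept it whichever array was left out.

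After seeing the data, the lens score was added as a covariate, which left 2 probes, and with it 1 of the 123 genes kept its call and 5 changed sign, Cryba1 (0.17), Crygb (0.10), Crygc (0.41), Crygd (0.19) and S100a6 (0.13). Of these, the crystallin genes are part of the score, so that their shift is built in. The score nearly separated the groups, so that a lost call does not tell what part lens tissue had. Within BeadChip 1 alone 8 probes were called (1474 at an unadjusted p), all lower, and within BeadChip 2 alone 371. Without diabetic replicates 2 and 3 the count was 522, and 759 without replicates 4 and 5. The cause of these changes was not tested. Fewer arrays entered the fits within a BeadChip and those that left arrays out.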
